A study of Mus musculus with 5 samples.

Results

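The genes described here are 10 imprinted growth genes, Igf2, Mest, Dlk1, Peg3, Plagl1, Slc38a4, H19, Meg3, Grb10 and Cdkn1c, chosen by symbol from the 13711 genes listed in every expression table of the series. All 10 were listed in all 5 tables. The tables come from 5 heart sections of wild-type C57BL/6 mice that had been profiled with Visium, an array whose barcoded capture spots record the polyadenylated RNA of the tissue lying over them. Myocardial infarction (MI, ligation of the left anterior descending artery) or sham surgery had been done at postnatal day 1, and the hearts were taken 3 or 7 days later. In sham animals the chest was opened but the artery was not tied. The transverse sections lay 200 µm below the suture in the MI hearts, and at a matching level in the sham hearts. There was 1 sham heart and 1 MI heart at day 3, 1 sham heart at day 7, and 2 separate MI hearts at day 7, with 3364 spots in all.

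An imprinted gene is expressed mainly from the copy inherited from one parent. Many imprinted genes act on fetal and early postnatal growth, and a set of them is expressed together in many fetal organs and declines as growth slows after birth. In mice Igf2, Mest, Dlk1, Peg3, Plagl1 and Slc38a4 are expressed mainly from the paternal copy, while H19, Meg3, Grb10 and Cdkn1c are expressed mainly from the maternal copy in most tissues. The spot data do not separate the parental copies, so imprinting itself was not measured.

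Several members lie together in the GRCm38 annotation. On chromosome 7, Igf2 (142650766 to 142666816), the long noncoding RNA gene H19 (142575529 to 142578143) and Cdkn1c (143458339 to 143461050) are all on the minus strand. On chromosome 12, Dlk1 (109452823 to 109463336) and the long noncoding RNA gene Meg3 (109541001 to 109571726) are both on the plus strand. Peg3 lies elsewhere on chromosome 7 (6703892 to 6730431), Mest on chromosome 6 (30723547 to 30748465), Plagl1 on chromosome 10 (13060504 to 13131694), Grb10 on chromosome 11 (11930508 to 12038683) and Slc38a4 on chromosome 15 (96994820 to 97055956). Exons of 6 members overlap those of other annotated genes. Igf2 shares 3596 exon bases with Gm49394 on the same strand and 98 with the antisense gene Igf2os, and Mest shares 912 with Copg2 on the opposite strand. Meg3 shares 1228 exon bases with Gm26906 and Cdkn1c 625 with Gm44732, both on the opposite strand. The overlaps of H19 and Plagl1, and the others of Meg3, are of 38 to 97 bases. Of these overlapping genes only Copg2 and Igf2os are in the shared gene list. Copg2 was listed between 30.7 and 38.0 CPM (counts per 1000000 counts of a spot) and Igf2os between 0.883 and 3.31 CPM in the 5 sections, and how the counting used strand is not given in the sources used here.

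Of the 10 members, 4 carry microRNAs inside their transcribed region, and the mature RefSeq sequences (GRCm38.p6) of these 9 arms are shown because the host transcripts are among those with the clearest patterns below. The pair miR-483 lies in an intron of Igf2, miR-335 in an intron of Mest, miR-675 in an exon of H19, and miR-770 and miR-1906 in exons of Meg3. Capitals mark the seed, bases 2 to 8, and the 9 seeds are all different. The tables hold host transcripts, and the mature microRNAs were not measured.
mmu-miR-483-5p: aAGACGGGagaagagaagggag
mmu-miR-483-3p: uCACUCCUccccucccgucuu
mmu-miR-335-5p: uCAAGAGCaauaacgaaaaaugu
mmu-miR-335-3p: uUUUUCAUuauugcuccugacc
mmu-miR-675-5p: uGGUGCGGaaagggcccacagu
mmu-miR-675-3p: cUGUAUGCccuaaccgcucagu
mmu-miR-770-5p: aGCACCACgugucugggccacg
mmu-miR-770-3p: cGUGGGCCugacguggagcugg
mmu-miR-1906: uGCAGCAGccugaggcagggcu

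Upstream windows are shown for the member with a paired locus and a test call between days (Igf2). Another is shown for the member that differed most between MI and sham over all spots across both days (Slc38a4). Each window is the 250 bases before the most upstream RefSeq start of the gene on the minus strand of GRCm38.p6, with no annotated exon inside it, chr7:142666817-142667066 for Igf2 and chr15:97055957-97056206 for Slc38a4. Both genes have further RefSeq starts downstream, whose windows are not printed here. Which start was used in these hearts was not measured.
Igf2 upstream window: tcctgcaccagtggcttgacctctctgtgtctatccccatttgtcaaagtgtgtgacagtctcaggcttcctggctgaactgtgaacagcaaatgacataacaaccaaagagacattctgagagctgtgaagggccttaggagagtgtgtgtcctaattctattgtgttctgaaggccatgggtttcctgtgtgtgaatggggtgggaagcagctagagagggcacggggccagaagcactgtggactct
Slc38a4 upstream window: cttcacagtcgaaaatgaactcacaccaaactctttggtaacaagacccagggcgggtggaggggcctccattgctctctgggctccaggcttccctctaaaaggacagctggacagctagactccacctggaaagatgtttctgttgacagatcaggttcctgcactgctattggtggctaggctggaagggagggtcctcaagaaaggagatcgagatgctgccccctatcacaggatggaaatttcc
The letters GGGGCCCC, the core of the sequence recognised by Plagl1, a zinc finger transcription factor and itself a member, were searched on both strands, where they read the same, in 17 RefSeq start windows of 8 members. They were found in 1 window, that of Peg3, beginning 201 bases before its start, against 1.08% of all 32851 windows of the same length. They were absent from both windows printed above. H19 and Cdkn1c had no window in the table.

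The sections held between 376 and 960 spots, and the median unique molecular identifier (UMI) count of a spot ran from 20842.5 to 53940. Each spot was scaled to CPM over the shared genes and averaged over the spots of a section, which is the level used throughout. The sham day 3 table held raw counts and the other 4 tables counts corrected for depth by the authors. The first MI day 7 section was the deepest, and mitochondrial genes made up 24.7% of its values against 13.8% to 15.8% in the other sections. All 5 cardiomyocyte markers (such as Tnnt2 and Myh6) were present and summed to between 14652 and 18840 CPM. Macrophage markers (5 of 5 present) summed to 84.0 and 91.5 CPM in the sham sections and to 853, 143 and 224 CPM in the MI day 3 and the 2 MI day 7 sections. Fibroblast markers (6 of 6 present) ran from 4155 to 4438 CPM in sham and from 5121 to 7016 CPM in MI, and blood markers (5 of 5) from 4411 to 6901 CPM in sham and from 8567 to 11384 CPM in MI. A spot holds several cells, so fewer cells of a type and less RNA per cell cannot be told apart in any level below.

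The first comparison asked how the members differed between day 3 and day 7 after surgery. Igf2, H19 and Plagl1 fell between day 3 and day 7, and all 10 members had a negative estimate, of which that of Cdkn1c turned positive under median-of-ratios scaling. Igf2 encodes an insulin-like growth factor that drives fetal growth. At day 3 the sham heart had 549.9 CPM and the MI heart 371 CPM, and at day 7 the sham heart had 228 CPM and the MI hearts 227 and 200.3 CPM. Every day 7 section therefore lay below both day 3 sections, with 41.4% of the day 3 level left in sham and 57.6% in MI hearts. The log2 difference was -0.998 (SE 0.148, adjusted p = 0.0492, limma with Benjamini-Hochberg adjustment over 12933 genes). The call was lost without the sham day 3 section, without the sham day 7 section (-0.80 each) and without the second MI day 7 section (-0.99), with a pseudocount of 5 CPM (adjusted p = 0.0569), under median-of-ratios scaling (adjusted p = 0.0683) and with no mean-variance trend (adjusted p = 0.0890, limma).

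H19, the long noncoding RNA that shares enhancers with Igf2, followed the same order of days. At day 3 it stood at 608 CPM (sham) and 424 CPM (MI), and at day 7 at 238 CPM (sham) and at 189 and 244 CPM (MI). The log2 difference was -1.14 (SE 0.16, adjusted p = 0.0407, limma), and its call was lost with a pseudocount of 5 CPM (adjusted p = 0.0519) and with no mean-variance trend (adjusted p = 0.0799). The 3 day 7 sections did not overlap the day 3 sections, and at day 7 the sham value lay between those of the MI hearts.

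Plagl1 had the lowest adjusted p of the members. The day 3 hearts had 93.9 CPM (sham) and 99.98 CPM (MI), against 34.9 CPM (sham) and 32.9 and 34.4 CPM (MI) in those of day 7. About the same share was left in both operations, 37.2% in sham and 33.7% in MI. The log2 difference was -1.48 (SE 0.11, adjusted p = 0.0121, limma).

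The other 7 members did not pass the test over all spots, and 4 of them passed it, lower at day 7, under some alternatives. Grb10 did so under median-of-ratios scaling (adjusted p = 0.0285), with pooled CPM (adjusted p = 0.0495), without mitochondrial and haemoglobin genes (adjusted p = 0.0185, limma) and without the sham day 3, the sham day 7 or the first MI day 7 section. Dlk1 did so without any one of the sham day 3, MI day 3, sham day 7 and first MI day 7 sections. Peg3 did so without mitochondrial and haemoglobin genes, and Slc38a4 in that setting and without the first MI day 7 section. Grb10, an adaptor protein that dampens insulin and insulin-like growth factor receptor signalling, was at 376 CPM (sham) and 439 CPM (MI) at day 3 and at 218 CPM (sham), 186 and 235 CPM (MI) at day 7 (log2 difference -0.95, SE 0.15, adjusted p = 0.0538, limma). Its day 7 sections were all below its day 3 sections. Dlk1, a Delta-like transmembrane protein that holds precursor cells in an immature state, was at 46.3 CPM (sham) and 46.7 CPM (MI) at day 3 and at 10.4 CPM (sham), 31.0 and 15.9 CPM (MI) at day 7 (log2 difference -1.47, SE 0.32, adjusted p = 0.0947, limma). The MI day 7 hearts differed from each other, relative to their mean, more in Dlk1 than in any other member, with a mean of 23.4 CPM ± 10.7 (SD, n = 2).

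Peg3, a zinc finger protein, read 48.0 CPM (sham) and 62.8 CPM (MI) at day 3, and 32.98 CPM (sham), 37.8 and 38.9 CPM (MI) at day 7. Mest, a member of the alpha/beta hydrolase family, read 462 CPM (sham) and 365 CPM (MI) at day 3, and 330.5 CPM (sham), 271 and 304 CPM (MI) at day 7. For both genes the days did not overlap, with log2 differences of -0.63 (SE 0.11, adjusted p = 0.0715, limma) and -0.40 (SE 0.12, adjusted p = 0.132, limma).

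Slc38a4, a transporter of neutral and cationic amino acids, overlapped between days because its sham and MI sections stood far apart on each day, and its log2 difference was -0.60 (SE 0.11, adjusted p = 0.0718, limma). Meg3, the long noncoding RNA downstream of Dlk1, read 62.5 CPM (sham) and 77.7 CPM (MI) at day 3, and 45.1 CPM (sham), 66.5 and 67.5 CPM (MI) at day 7 (log2 difference -0.32, SE 0.12, adjusted p = 0.166, limma). Cdkn1c, an inhibitor of cyclin-dependent kinases, read 24.2 CPM (sham) and 17.4 CPM (MI) at day 3, and 16.4 CPM (sham), 19.9 and 19.98 CPM (MI) at day 7 (log2 difference -0.12, SE 0.18, adjusted p = 0.682, limma). The Cdkn1c estimate under median-of-ratios scaling was 0.063.

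**Figure D1:**
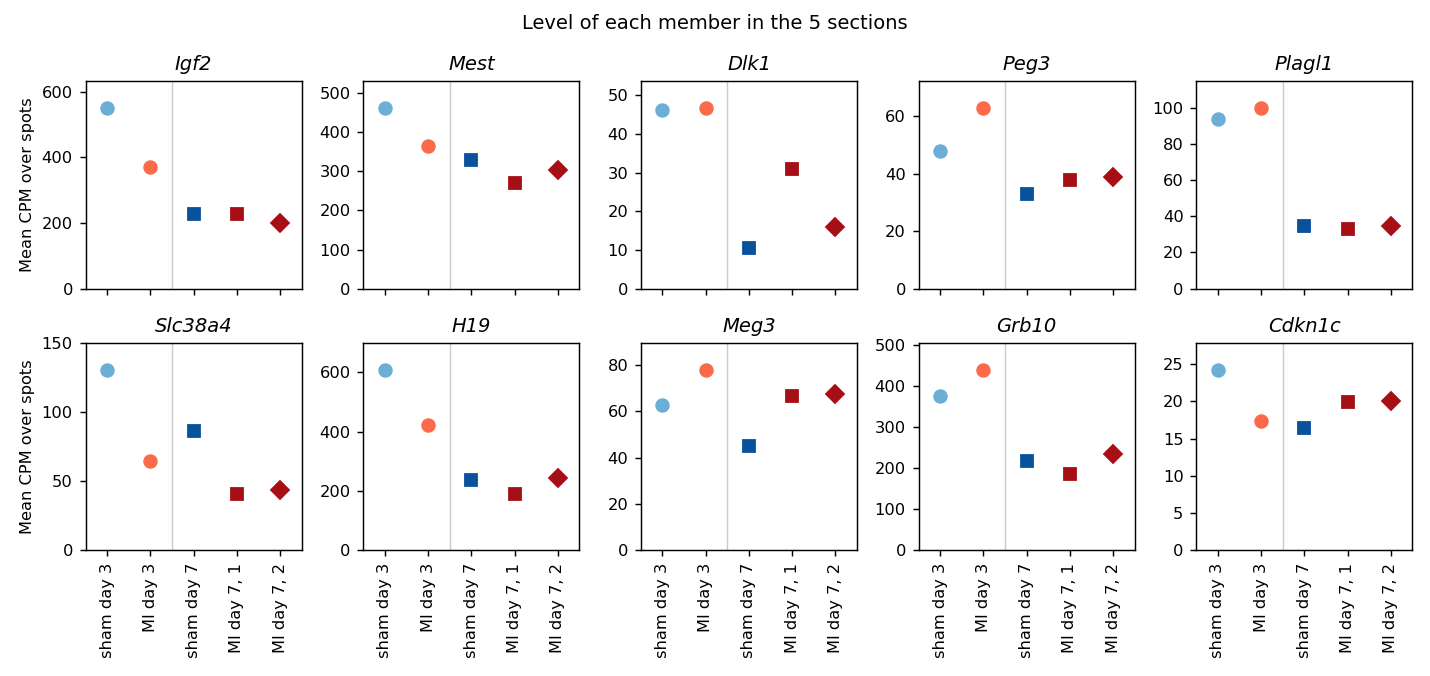
Mean CPM over spots (vertical axes from 0, one scale per gene) for each member in the 5 sections (horizontal axis), with circles for day 3, squares and diamonds for day 7, blue for sham and red for MI. For Igf2, Mest, Dlk1, Peg3, Plagl1, H19 and Grb10 the 3 day 7 points lie below both day 3 points, while in Slc38a4 the 3 MI points lie below both sham points.

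These counts need the background of the whole table. The share of all 12933 genes called lower at day 7 was 0.348%, and 3 of the 10 members were called. Every day 7 section lay below every day 3 section in 38.9% of all genes and in 7 of the 10 members. The median log2 difference over all genes was -0.18, with 77.4% of genes negative, and over the members it was -0.79. In all, 32 genes were called higher and 45 lower, while median-of-ratios scaling, which moved the median over all genes to -0.01, gave 127 higher and 58 lower. Leaving out a section changed the calls of members and of all genes, and the 5 fits are not separate checks. Without either sham section the day estimate, here and in the score classes below, came from the MI hearts alone. Without the MI day 3 section it came from the sham hearts alone. Without the sham day 3 section 4 members and 622 genes were called lower, without the sham day 7 section 4 members and 637 genes, and without the MI day 3 section 4 members and 43 genes. Without the first MI day 7 section 6 members and 86 genes were called lower, and without the second 2 members and 22 genes, with Plagl1 and H19 called in each of these 5 fits.

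The comparison was repeated over spots whose highest cell type score was the same, since the mix of spots differed between sections. The scores had been transferred by the authors from single-nucleus data for 11 cell types, of which CM1 to CM5 are cardiomyocyte populations, FB fibroblasts, EC endothelial and EndoEC endocardial cells. In CM1-dominant spots, between 211 and 491 a section, 6 members fell between day 3 and day 7, against 2.39% of 12748 genes called lower. They were Igf2 at -0.95 (SE 0.15, adjusted p = 0.0031), H19 at -1.05, Dlk1 at -1.66, Grb10 at -0.98, Plagl1 at -1.57 and Slc38a4 at -0.60 (adjusted p = 0.0428, limma) on the log2 scale. Meg3 (-0.38), Peg3 (-0.56), Mest (-0.47) and Cdkn1c (0.04) did not pass the test.

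In CM1 spots 98 genes were called higher and 305 lower over all genes, against 202 higher and 116 lower under median-of-ratios scaling, which left 4 members called. Dlk1 lost its call in CM1 spots under that scaling (adjusted p = 0.0601) and without mitochondrial and haemoglobin genes (adjusted p = 0.0501, limma). Slc38a4 lost its call there under that scaling (adjusted p = 0.0522) and with no mean-variance trend (adjusted p = 0.108, limma), and Mest was called without mitochondrial and haemoglobin genes (adjusted p = 0.0444, limma). Without the MI day 3 section only Dlk1 and Plagl1 of the members were called there, with 94 genes called lower in all. Without the sham day 3 or the sham day 7 section H19, Dlk1, Grb10 and Plagl1 were called, with 445 and 456 genes lower, and without the first MI day 7 section 8 members, with 265 genes lower. Without the second MI day 7 section the 6 members stood against 808 genes called lower. In FB-dominant spots, between 22 and 266 a section, Plagl1 fell by 1.21 on the log2 scale (SE 0.20, adjusted p = 0.0318, limma), against 0.0905% of 13266 genes called lower (17 higher and 12 lower, and 32 and 11 under median-of-ratios scaling). The other 9 members had negative estimates there, from -0.17 for Cdkn1c (0.0058 under median-of-ratios scaling) to -0.98 for H19, and did not pass. Plagl1 lost its call in FB spots without the sham day 3, the MI day 3 or the second MI day 7 section, under median-of-ratios scaling (adjusted p = 0.0555) and with no mean-variance trend (adjusted p = 0.369, limma). Igf2, H19, Grb10 and Slc38a4 were called lower with Plagl1 in FB spots without the first MI day 7 section, with 40 genes lower in all. With each section left out in turn, the FB estimates ran from -0.94 to -0.69 for Slc38a4 and from -0.89 to -0.70 for Peg3. For Dlk1 they ran from -2.28 to 0.82.

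**Figure D2:**
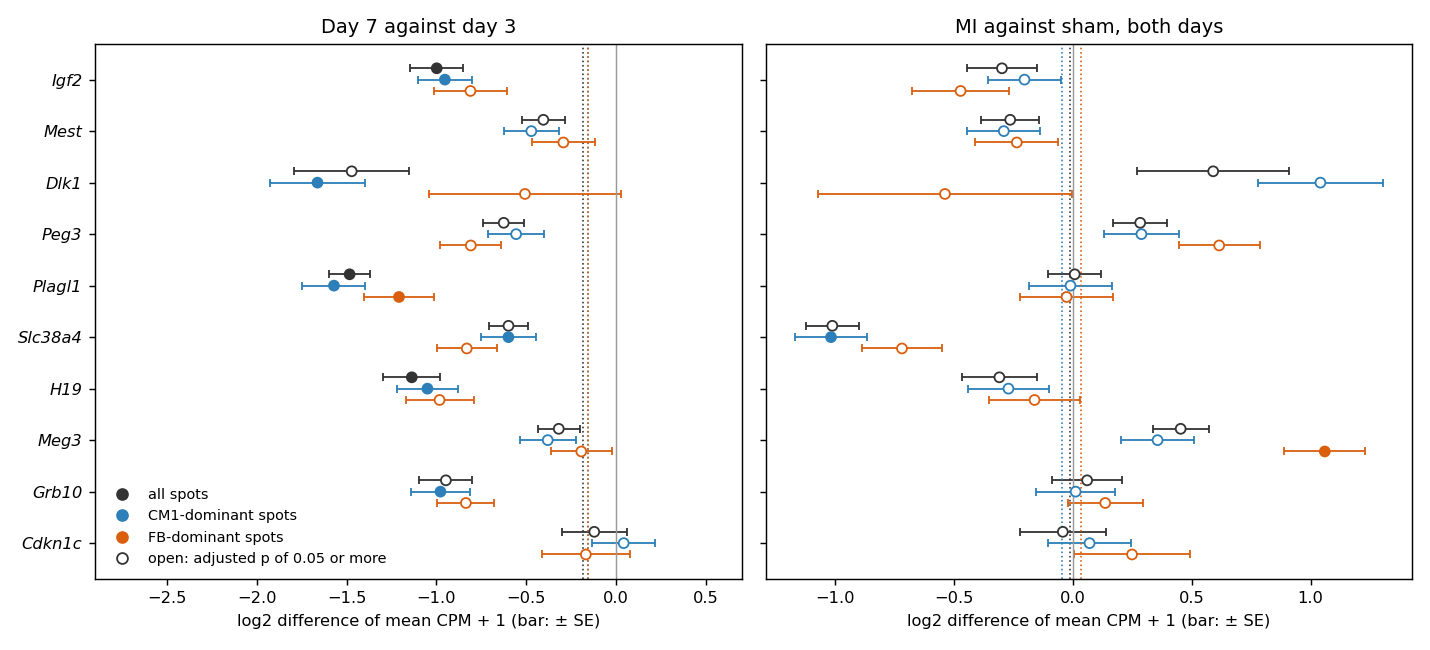
Log2 differences of section means of CPM + 1 (horizontal axes, bars ± SE from limma) for the 10 members, between days on the left and between MI and sham on the right, over all spots (black), CM1-dominant spots (blue) and FB-dominant spots (orange). Filled points have an adjusted p under 0.05, dotted lines are the medians over all genes, and on the left all points but those of Cdkn1c over all and CM1-dominant spots lie left of those medians. On the right the filled points are Slc38a4 in CM1-dominant and Meg3 in FB-dominant spots.

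H19, Grb10 and Plagl1 stood lower in every day 7 section than in every day 3 section within all 6 score classes that had at least 10 spots in every section (CM1, CM4, FB, EC, EndoEC and Macrophage), as did 0.851% of all genes. Igf2 did so in 5 of the 6, all but Macrophage, where the share over all genes with at least 5 classes was 3.48%. Mest did so in 4, Peg3 in 3, Slc38a4 in 2, and Dlk1, Meg3 and Cdkn1c in 1. No share over all genes was taken for fewer than 5 classes, and over all spots 38.9% of genes did so. These lower counts are therefore a description only. Endocardial markers (3 of 3 present) summed to 50.8 and 63.8 CPM at day 3 and to 34.9 to 51.3 CPM at day 7. Among them Npr3 had a log2 difference between days of -1.05 (adjusted p = 0.0916) and Plvap of -0.89 (adjusted p = 0.116, limma), both with an unadjusted p under 0.05, and Vwf of 0.24. Leaving out the EndoEC-dominant spots, which made up 8.51% to 8.82% of spots at day 3 and 4.17% to 6.49% at day 7, Igf2 was at 499 and 322 CPM at day 3 and at 217, 210.3 and 186 CPM at day 7. H19 without those spots was at 489 and 344 CPM at day 3 and at 222, 165 and 227 CPM at day 7.

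Where the members lay within a section was described by these score classes, without a test, because the scores were made from the same expression values. Endocardial markers (Npr3, Vwf and Plvap) summed in EndoEC-dominant spots to 8.37 to 13.1 times their level in CM1-dominant spots, and fibroblast markers in FB-dominant spots to 2.51 to 4.58 times. Cardiomyocyte markers stayed at 0.686 to 0.962 times the CM1 level in EndoEC spots, so these spots held cardiomyocyte RNA too. H19 and Igf2 were highest in EndoEC-dominant spots in all 5 sections.

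H19 in EndoEC-dominant spots was at 1837 CPM (sham) and 1283 CPM (MI) at day 3, and at 571 CPM (sham), 528 and 621 CPM (MI) at day 7. In CM1-dominant spots it was at 385, 302, 175, 127 and 181 CPM in the same order. The ratio was 3.25 to 4.77 with a median of 4.17, which ranked 3 among 5032 genes with at least 20 CPM in every section, where the median ratio was 1.07. H19 was also higher in FB-dominant than in CM1-dominant spots in 5 of 5 sections, by 1.83 to 2.29 times.

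Igf2 in EndoEC-dominant spots was at 1076 and 900.6 CPM at day 3 and at 461, 469 and 527 CPM at day 7. In CM1-dominant spots it was at 413, 317, 188, 185 and 173 CPM. Its ratio of 2.45 to 3.04 (median 2.61) ranked 18 among the 5032 genes. Plagl1 was the third member above CM1 in the EndoEC class in all 5 sections with a median ratio over 1.5, at 1.32 to 2.39 times (median 1.77, rank 89). Igf2, H19, Meg3 and Plagl1 were above CM1 in that class in all 5 sections, as were 17% of all genes.

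Igf2, H19, Meg3, Peg3, Cdkn1c, Slc38a4 and Mest, 7 of the 10 members, were higher in FB-dominant than in CM1-dominant spots in all 5 sections, as were 31.4% of all 12933 genes, and the median ratio over the 5032 genes was 1.11. For Slc38a4 the lowest ratio was 1.00 (median 1.09, rank 2650), and with pooled CPM it was above in 4 of 5 sections. For Meg3 the ratio was 1.68 to 3.57 with a median of 2.49 (rank 70 of 5032 genes), and for Peg3 it was 1.47 to 2.20 with a median of 1.83 (rank 182). Meg3, Peg3 and Cdkn1c were also above CM1 in CM4-dominant spots in all 5 sections, and H19 and Peg3 in Macrophage-dominant spots. The Meg3 ratio in CM4 spots was 1.22 to 1.55, and shares over all genes were not taken for these classes. In the second MI day 7 section Meg3 and Peg3 were highest in the 13 Macrophage-dominant spots, at 202 and 69.6 CPM. In FB-dominant spots there they were at 159 and 57.5 CPM. Mest was above CM1 in EC-dominant spots in 5 of 5 sections, at 1.28 to 1.51 times, as were 14% of all genes in all 5 sections. For Grb10 the median ratios to CM1 lay from 0.98 to 1.05 over the other 6 classes, and the class with its highest level exceeded that with its lowest by 1.13 to 1.44 times within a section. For Slc38a4 the median ratios lay from 0.89 to 1.17, and its highest class exceeded its lowest by 1.26 to 1.88 times, with FB above EC at 91.6 against 48.9 CPM in the MI day 3 section.

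Dlk1 was unevenly spread over the spots and higher at the border of the sections. Spots at the border of a section, those with fewer than 6 neighbouring spots, held 1.53 to 2.75 times the Dlk1 level of interior spots in all 5 sections, and 0.162% of all genes had border spots at 1.5 times or more in every section. The tenth of spots richest in Dlk1 carried 47.7% to 66.2% of its summed level, against 32.3% to 50.8% for Cdkn1c, which was above Dlk1 in the sham day 3 section, 23.0% to 26.9% for Igf2 and 16.2% to 19.5% for Grb10. Dlk1 was above 0 in 18.3% of spots in the sham day 7 section and in 60.6% in the MI day 3 section, shares that also move with depth. Mest was lower at the border than inside in all 5 sections, at 0.750 to 0.937 times, as were 20.7% of all genes, and Igf2 in 4 of 5.

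The Moran index, which is near 0 for a random arrangement and rises when neighbouring spots have similar levels, was 0.185 to 0.504 for Igf2 and 0.239 to 0.479 for H19. It ran from 0.0762 to 0.469 for Dlk1, with the higher values of 0.458 and 0.469 in the MI day 3 and the first MI day 7 section, which were the 2 deepest. Slc38a4 stayed between -0.01 and 0.0533. The median over the 5032 genes was 0.00977 to 0.0392.

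Across the spots of a section, Igf2 and H19 went together more than any other of the 45 pairs of members. Spearman's coefficient was 0.61 in sham and 0.49 in MI at day 3, and 0.38 in sham and 0.49 and 0.32 in MI at day 7. The spots of a section share a library and are neighbours, so the coefficient is given as a description. Within EndoEC-dominant spots alone (32 to 48 a section) the coefficient was 0.57 to 0.67, within FB-dominant spots 0.34 to 0.62, and within CM1-dominant spots 0.17 to 0.41. The next pairs were Plagl1 with Igf2 and Plagl1 with H19, each with a mean coefficient of 0.18, while the neighbours Dlk1 and Meg3 had a mean of 0.14.

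Igf2 and H19 both had a median coefficient of 0.43 with the EndoEC score, and -0.26 and -0.40 with the CM1 score. Meg3 had a median of 0.26 and H19 of 0.30 with the FB score, and Mest 0.24 with the EC score. Of all 5032 genes, those most like H19 after Igf2 were Col3a1 and Postn (mean coefficient 0.39 each), matrix genes of fibroblasts, and those most like Igf2 after H19 were Tm4sf1 (0.32) and Fabp5 (0.28). The genes most like Meg3 were Col3a1 (0.37), Col1a1 and Col1a2 (0.34 each), those most like Peg3 were Col3a1 (0.24), Col1a1 (0.23) and Sparc (0.22), and those most like Mest were Tmsb10 (0.27), Cd34 (0.23) and Myl1 (0.22). No gene other than a member had a mean coefficient above 0.15 with Plagl1, Dlk1, Grb10, Cdkn1c or Slc38a4.

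**Figure D3:**
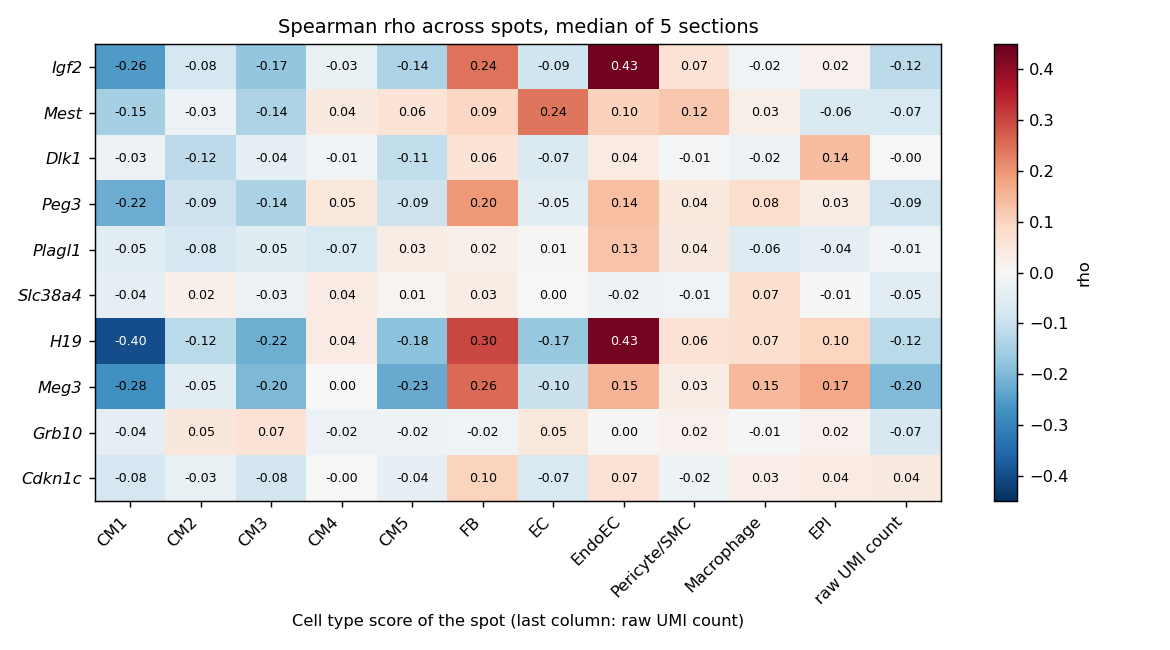
Spearman's coefficient across spots between each member (rows) and the 11 cell type scores and raw UMI count of the spot (columns), as the median of the 5 sections, with red for positive and blue for negative values. The highest values are 0.43 for Igf2 and H19 with the EndoEC score, and with the scores the values of Slc38a4 and Grb10 lie between -0.04 and 0.07.

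The second comparison asked how the members differed between MI and sham hearts. No member passed the test across both days (limma, 0.00773% of 12933 genes called in either direction), and at an unadjusted p under 0.05 there were 3 members and 8.1% of all genes. Slc38a4 had the most negative difference of the members. Its day 3 level was 131 CPM (sham) and 64.9 CPM (MI), and its day 7 level 86.6 CPM (sham), 40.6 and 44.0 CPM (MI).

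The MI level of Slc38a4 was 0.496 times the sham level at day 3 and 0.488 times at day 7, and all 3 MI sections lay below both sham sections, as in 9.6% of all genes. The log2 difference was -1.01 (SE 0.11, adjusted p = 0.134, limma), and 0.131% of genes lay at or below it. In CM1-dominant spots it fell by 1.02 on the log2 scale (SE 0.15, adjusted p = 0.00877, limma), against 0.0628% of 12748 genes called lower. That call was lost without the MI day 3 section, at -1.04, without the sham day 7 section, at -0.98, and with no mean-variance trend (adjusted p = 0.0752, limma). Over all spots the difference passed the test under median-of-ratios scaling (-1.02, adjusted p = 0.0442, limma), where 1 gene was called lower. It also passed without the first MI day 7 section (-0.98, 6 genes lower). Without the sham day 7 section the difference was -0.9995, set by the sham and MI hearts of day 3 alone.

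Slc38a4 in MI lay below both sham sections in CM1, EC, EndoEC and Macrophage-dominant spots, where 1.67% of all genes did so in at least 4 of 6 classes. In FB-dominant spots it read 137 CPM (sham) and 91.6 CPM (MI) at day 3, and 84.6 CPM (sham), 48.0 and 46.6 CPM (MI) at day 7. The MI day 3 value there was above the sham day 7 value, but within each day MI was lower. The macrophage, fibroblast and blood marker sums above were higher in every MI section than in every sham section, and their part in the Slc38a4 difference was not tested.

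Meg3 was the only member with all 3 MI sections above both sham sections, as in 6.84% of all genes, although the margin was small, 66.5 CPM in the lowest MI section against 62.5 CPM in the highest sham section. Its log2 difference was 0.45 (SE 0.12, adjusted p = 0.412, limma). In FB-dominant spots, a comparison added after the values were seen, Meg3 stood at 81.7 CPM (day 3) and 62.5 CPM (day 7) in sham hearts, and in MI hearts at 150.3 CPM (day 3), 132 and 159 CPM (day 7). There it rose by 1.06 (SE 0.17, adjusted p = 0.0227, limma), where 0.588% of 13266 genes were called higher. The call was lost on leaving out any of the sham day 3, MI day 3, sham day 7 and second MI day 7 sections, with values of 0.87 to 1.20, and with no mean-variance trend (adjusted p = 0.459, limma). In the same FB-dominant spots the 6 fibroblast markers, none at 0, summed to 6591 and 7278 CPM in sham hearts and to 11489, 11279 and 18337 CPM in MI hearts, and their part in the Meg3 difference was not tested.

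Dlk1 read 46.3 CPM (sham) and 46.7 CPM (MI) over all spots at day 3, and at day 7 its mean in the MI hearts was 2.25 times the sham level. These day 3 levels split by class, with CM1-dominant spots at 34.0 CPM (sham) and 62.9 CPM (MI) and FB-dominant spots at 63.1 CPM (sham) and 11.9 CPM (MI), the latter over 22 spots in the MI heart. The day 7 log2 difference was 1.02 (SE 0.29, adjusted p = 0.325, limma), and it was 0.56 with the second and 1.49 with the first MI heart alone. Across days in CM1-dominant spots it was 1.04 (SE 0.26, adjusted p = 0.132, limma). It was 1.17 without the sham day 3 or the MI day 3 section, then set by the day 7 hearts alone. Without the second MI day 7 section it passed the test at 1.33, where 147 genes were called higher in all. In FB-dominant spots the Dlk1 difference was -2.31 without the sham day 7 section, then set by the day 3 hearts alone. With other sections left out it reached 0.79 there. Igf2, H19, Cdkn1c and Mest were lower in MI than in sham at day 3. Their log2 ratios in the 2 day 3 sections were -0.57, -0.52, -0.46 and -0.34, differences with no replicate check. The sham section of this pair held raw and the MI section corrected counts, so count type cannot be told apart from operation there. Across both days over all spots the differences of Igf2, H19, Cdkn1c and Mest were -0.30, -0.31, -0.041 and -0.26, and none passed. At day 7 the Cdkn1c difference was 0.27. In FB-dominant spots the Igf2 difference across days ran from -0.92 to -0.13 with a section left out.

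At day 7 alone no member passed the test (limma, 0.232% of genes called in either direction, with 3 members and 4.11% of genes at an unadjusted p under 0.05), and Slc38a4 was at -1.02 (SE 0.22, adjusted p = 0.0836). With pooled CPM, where 87 genes were called, Dlk1 passed at 1.01 (adjusted p = 0.0278) and Slc38a4 at -1.02 (adjusted p = 0.0122, limma). The difference between the MI effects of the 2 days passed for no member either (limma, 0.425% of genes called, with 2 members and 5.44% of genes at an unadjusted p under 0.05). It was -0.018 (SE 0.34) for Slc38a4, 1.01 (SE 0.44, adjusted p = 0.807) for Dlk1 and 0.73 (SE 0.33, adjusted p = 0.855) for Cdkn1c. Each of these fits rests on 1 residual degree of freedom, from the 2 MI day 7 hearts.

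**Figure D4:**
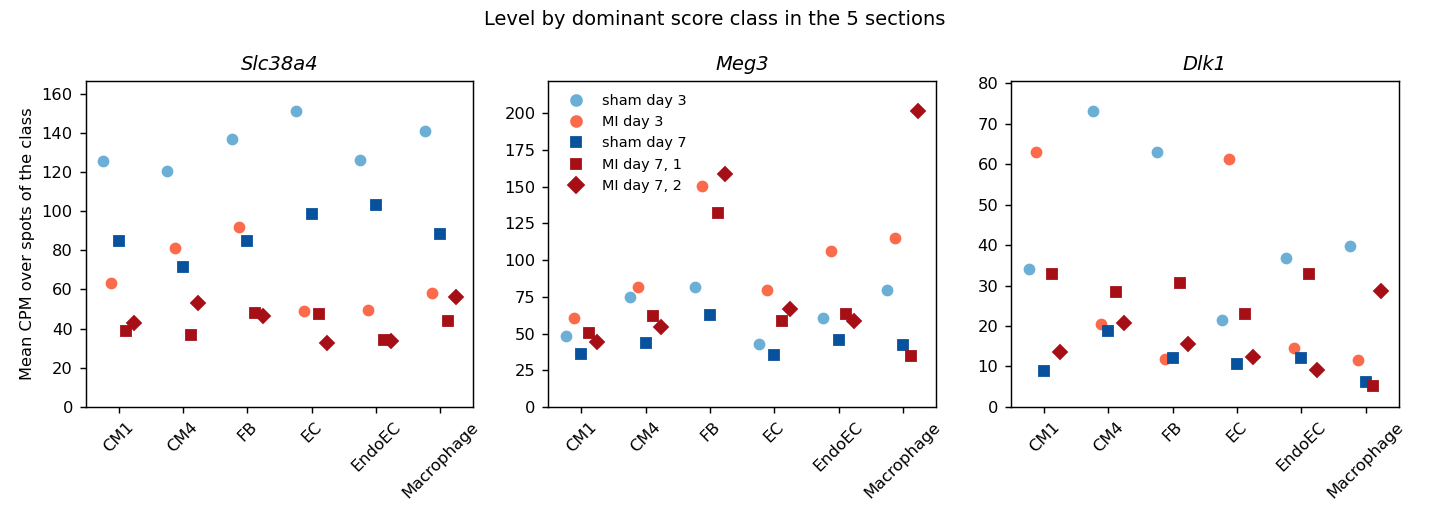
Mean CPM over spots (vertical axes from 0) of Slc38a4, Meg3 and Dlk1 in 6 dominant score classes, with one point per section, blue for sham and red for MI, circles for day 3 and squares and diamonds for day 7. Slc38a4 in MI lies below sham of the same day in each class, and Meg3 in FB spots lies above both sham points in all 3 MI sections.

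Genes around the members were read from lists that were chosen with earlier results of these data known. Of 20 other imprinted genes, 15 were tested, all 15 had a negative estimate at day 7 against day 3 (10 under median-of-ratios scaling), and 1 fell, against 77.4% of all genes negative and 0.348% called lower. This was Igf2r, the receptor that carries Igf2 to lysosomes for degradation, with 222 and 264 CPM at day 3 and 115, 98.7 and 103 CPM at day 7 (log2 difference -1.19, SE 0.14, adjusted p = 0.0316, limma). The next in size were Nnat at -0.73 and Asb4 at -0.70, which did not pass. The median of the list was -0.34.

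Of 15 genes of the insulin-like growth factor pathway, 14 were tested and 4 fell, against 0.348% of all genes: Igf2r, Igfbp5, a secreted binding protein (-1.32, SE 0.18, adjusted p = 0.0407), and Igf2bp1 and Igf2bp2, proteins that bind Igf2 and other mRNAs (-1.83 and -1.06, adjusted p = 0.0220 and 0.0415, limma). Igf2bp1 was low throughout, at 4.92 and 6.66 CPM at day 3 and 0.544, 1.20 and 1.35 CPM at day 7. Igf2bp3 at -1.23 (adjusted p = 0.0572, limma) did not pass. Under median-of-ratios scaling Igfbp5 lost its call and Igf2bp3 gained one. The median of the 14 genes was -0.63, with 11 of them (78.6%) negative, a share close to the 77.4% of all genes, and 10 under that scaling.

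Of 10 genes of postnatal growth and the cell cycle, 8 were tested and none was called by limma, with 5 at an unadjusted p under 0.05, all lower at day 7, against 21.7% of all genes lower at that p. The 3 with the largest differences were Ccnb1 at -0.89, Top2a at -0.84 and Ezh2 at -0.72. Between MI and sham no gene of the 3 lists was called by limma, with 1 of 15, 4 of 14 and 2 of 8 genes at an unadjusted p under 0.05, against 8.1% of all genes. The largest differences were Igfbp6 at 1.51, Igfbp3 at 1.18 and Igf2bp1 at 0.48 in the growth factor list, Snrpn at -0.55, Zim1 at 0.45 and Ndn at -0.29 among the imprinted genes, and Mycn at -0.54, Gpc3 at 0.49 and Ccnd1 at -0.27 in the growth list.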

How the data were processed

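The authors aligned Visium reads to mm10/GRCm38 with Space Ranger and normalised each section with sctransform in Seurat. The deposited sham day 3 table holds raw UMI counts per gene and spot, and in the other 4 tables the authors deposited sctransform-corrected counts, treated here as a score because they are not read counts. The deposited metadata give raw UMI counts per spot and cell type scores, transferred by the authors from single-nucleus data, as a fraction from 0 to 1 that sums to 1 per spot.

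Here each spot was scaled to 1000000 over 13711 shared genes, averaged per section and tested on log2(mean CPM + 1) with limma 3.58.1 in R 4.3.3, two-sided, with a mean-variance trend and Benjamini-Hochberg adjustment at 0.05, after keeping genes with at least 1 CPM in at least 2 sections. The section was the replicate, never the spot, so the number of hearts limits the precision. Day and operation were fitted together (2 residual degrees of freedom), and 4 group means gave the day 7 contrast. Fold changes on this scale understate those of low genes. Pairs of sections shared 3 to 449 spot barcodes, which are array positions. Alternatives changed the pseudocount, filter, scaling, averaging, trend and sections.

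The members and lists were chosen with earlier results of these data known. Text names all members, list genes that passed or had the 3 largest differences, and the 3 genes most like a member. Scores and levels per class, coefficients across spots and the Moran index carry no test.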

Additional observations from a re-analysis of the deposited data

How the results depend on the processing

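Between days over all spots, 3 members were called, against 1 with a pseudocount of 5 CPM, 1 with no mean-variance trend and 6 without mitochondrial and haemoglobin genes. Igf2 was lost with the pseudocount of 5 CPM, with no trend and with median-of-ratios scaling (-0.80), and H19 with the first of these and with no trend. Between days there were 77 genes in all against 19 with no trend, 185 with median-of-ratios scaling and 213 without mitochondrial and haemoglobin genes. In CM1-dominant spots the 403 genes became 237 with no trend. Between MI and sham across days, 0 members and 1 gene were called, against 1 member and 3 genes with median-of-ratios scaling and 0 genes with a pseudocount of 5 CPM. At day 7 the 0 members and 30 genes became 2 members and 87 genes with pooled CPM, and 0 genes with median-of-ratios scaling or without mitochondrial and haemoglobin genes. Between MI and sham in CM1-dominant spots the 1 member was not called with no trend (0 members), and the 32 genes became 14 with median-of-ratios scaling, 16 without mitochondrial and haemoglobin genes, 58 with pooled CPM and 13 with no trend. The 55 genes whose MI effect differed between days became 130 with a pseudocount of 5 CPM, 158 with pooled CPM, 30 with no trend and 0 under both other scalings. In FB-dominant spots the 79 genes that differed between MI and sham became 30 with a pseudocount of 5 CPM, 119 without mitochondrial and haemoglobin genes and 0, with 0 members, with no trend (with an unadjusted p under 0.05, 958 genes were higher, 354 lower). Between days the 1 member there became 0 with median-of-ratios scaling and 0 with no trend, where the 29 genes became 0 (with an unadjusted p under 0.05, 456 genes were higher, 1193 lower). In FB-dominant spots the scaling, filter and averaging settings, and the trend setting, were added after seeing the data. The causes were not tested. The H19 ratio of FB to CM1 spots moved from 1.99 to 2.20 for spots with a score of at least 0.5.

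Leaving out each section in turn gave 2 to 6 members and 32 to 758 genes between days and 0 to 1 members and 0 to 366 genes between MI and sham. At day 7 only the day 3 sections could be left out with a test, which leaves the day 7 estimates as they were (0 members, 29 to 34 genes), so this is no check of that contrast. In CM1-dominant spots leaving out each section gave 2 to 8 members and 158 to 951 genes between days, and 0 to 2 members and 31 to 267 genes between MI and sham. In FB-dominant spots it gave 0 to 5 members and 2 to 642 genes between days, and 0 to 3 members and 0 to 700 genes between MI and sham. Where a group was left with 1 section, it was assumed to vary like the others.

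Other settings turned the sign of estimates near 0. With median-of-ratios scaling these were Cdkn1c between days (0.063, and 0.0058 in FB spots), Plagl1 between MI and sham (-0.0032, and 0.024 in CM1 spots, where a pseudocount of 5 CPM gave 0.0025) and Slc38a4 in the difference of the MI effects (0.083, and 0.0030 with a pseudocount of 5 CPM). Without mitochondrial and haemoglobin genes they were Grb10 (0.023) and Plagl1 (0.027) at day 7, Plagl1 in CM1 spots (0.076) and Slc38a4 in the difference of the MI effects (0.076).

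Leaving out each section in turn, the sign also turned for Cdkn1c between days (-0.54 to 0.19, and -0.13 to 0.17 in CM1 spots) and for Dlk1 between days in FB spots (-2.28 to 0.82). Between MI and sham it turned for Cdkn1c (-0.46 to 0.27, and -0.10 to 0.20 in CM1 spots), Grb10 (-0.061 to 0.22, and -0.12 to 0.19 in CM1 spots) and Plagl1 (-0.051 to 0.089, -0.28 to 0.35 in CM1 and -0.39 to 0.25 in FB spots). It turned there in FB spots for H19 (-0.43 to 0.043) and Dlk1 (-2.31 to 0.79), at day 7 for H19 (-0.33 to 0.034) and Grb10 (-0.23 to 0.11), and in the difference of the MI effects for Slc38a4 (-0.074 to 0.037). With either MI day 7 section left out, the day 7 contrasts have no residual degrees of freedom and are values with no test.

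No paired analysis was possible because the labels number replicates only within the MI day 7 group.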
